A study of Mus musculus with 292 samples.

Results

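Cryptochromes and the enzymes that mark clock proteins for degradation were followed as 7 transcripts, chosen by gene symbol: Cry1, Cry2, Fbxl21, Csnk1d, Csnk1e, Btrc and Fbxw11. These are 7 of the 48795 gene identifiers in the deposited count tables, and all 7 passed the filter on low counts in each tissue. CRY1 and CRY2 are the repressors that, bound to PER proteins, shut off transcription by CLOCK and BMAL1 at E-box elements and so close the feedback loop of the mammalian clock. How long the repressors last helps set the pace of the loop. The F-box protein FBXL21 is a substrate receptor of ubiquitin ligases that act on cryptochromes, whereas BTRC and FBXW11, the paired β-TrCP proteins, receive PER proteins that casein kinase 1 delta (Csnk1d) or epsilon (Csnk1e) has phosphorylated.

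The data are RNA sequencing of 292 libraries from male mice of the C57BL/6J strain, wild type and 26 weeks old, with no other genotype or treatment. They comprise 78 libraries of cerebral cortex (right hemisphere), 60 of striatum, 77 of hypothalamus and 77 of liver, taken every 3 h over 36 h at 13 time points. Folded on zeitgeber time (ZT, hours on the clock of the lighting cycle), the time points make 8 groups from ZT0 to ZT21, of 6 to 12 libraries each in cortex, hypothalamus and liver. The striatal groups were thinner, with 2 libraries for ZT15, 4 for ZT18, 6 for ZT21 and from 8 to 11 elsewhere. The lighting schedule is not given in the labels, which name 1 mouse per library.

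Library totals, in megacounts (M), ran from 28.3 to 40.5 M in cortex, 11.7 to 43.4 M in striatum, 29.2 to 50.01 M in hypothalamus and 11.7 to 41.9 M in liver. In 7 libraries the marker genes or the total stood apart. In those labelled cortex ZT0 replicate 1 and ZT9 replicate 9, the 4 cortical excitatory neuron markers summed to 10.7 and 18.1 counts per megacount of the library (CPM), against 1175.5 to 1676 CPM in the rest of the cortex. In both, 6 striatal projection neuron markers summed to more than in any other library labelled cortex (2749 and 4263 CPM, against at most 1307 CPM), so their markers go against their label. Those labelled hypothalamus ZT0 replicate 9 and ZT9 replicate 9 held 37889 and 28441 CPM of 6 pituitary markers, against at most 873 CPM in the others. The library labelled striatum ZT21 replicate 3 held 3535 CPM of 4 cerebellar markers, against at most 99.03 CPM. The remaining ones were striatum ZT3 replicate 5 and liver ZT18 replicate 4, each of 11.7 M, and in the latter the gene model Gm42418 took 62.3% of them. Striatum libraries were uneven beyond these, as the summed level of the striatal projection neuron markers ranged from 69.95 to 5813 CPM and in 29 of 60 lay below the highest cortex library not set apart. The part of this makeup in the striatal results was not tested beyond the values given beside them.

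A rhythm was fitted as a 24 h cosine to the counts of each tissue and tested with edgeR's quasi-likelihood test, with Benjamini-Hochberg adjustment over all genes tested. Its size is the log2 ratio of the fitted peak to the fitted trough, ± the standard error; it cannot be negative, so noise alone gives values above 0. Where 2 ZT groups are set side by side below, they are those with the highest and the lowest mean in that tissue, so a gap between them is a description and occurred for uncalled members too. Cry1 was rhythmic in all 4 tissues, Cry2 in 3, Fbxl21 in 3, Btrc and Fbxw11 in liver, and Csnk1d and Csnk1e in cortex. Thus 4 of 7 members were called in cortex at an adjusted p under 0.05 (where 43.7% of 19564 genes were called), 2 in striatum (5.7% of 21637), 3 in hypothalamus (24.3% of 20407) and 5 in liver (72.8% of 16159). The median log2 ratio of the 7 was 0.40 in liver, 0.21 in cortex, 0.13 in striatum and 0.09 in hypothalamus, beside 0.38, 0.19, 0.24 and 0.16 over all genes tested. Counts over 7 genes beside such backgrounds are not read as a property of the group, and what follows describes single genes.

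**Figure D1:**
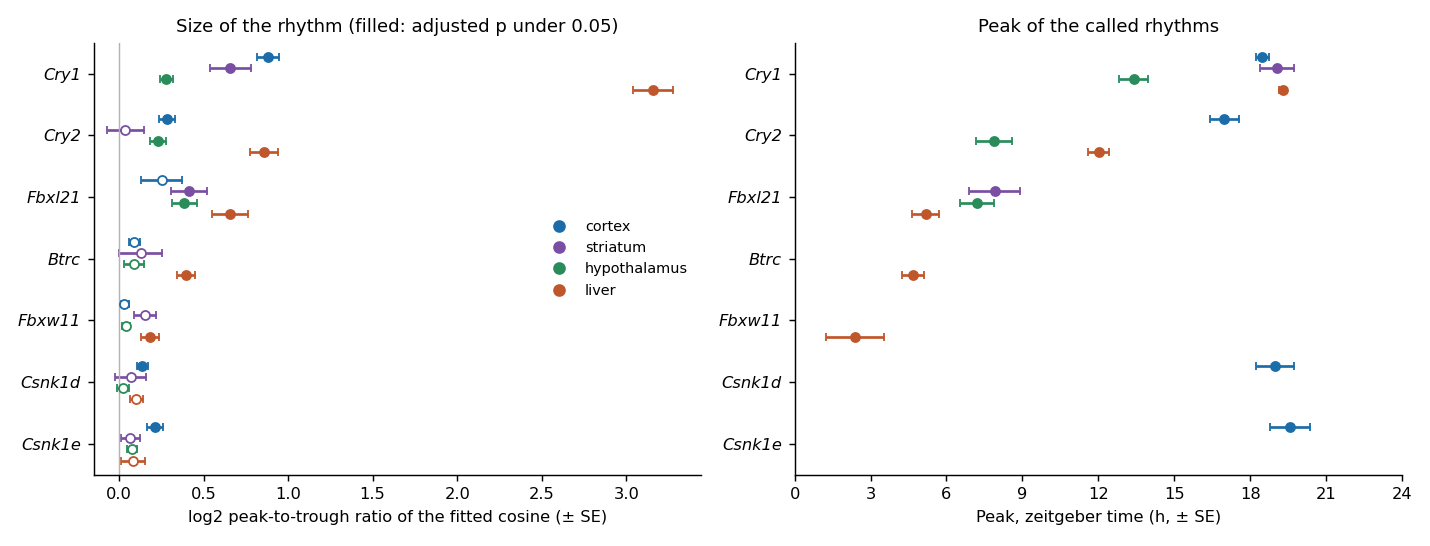
Log2 peak-to-trough ratio of the fitted 24 h cosine (± SE) for the 7 members in 4 tissues, filled where the adjusted p was under 0.05, and the fitted peak in zeitgeber time (h, ± SE) of those called. Cry1 in liver stands alone at 3.16, and its peak falls at ZT19.3 in liver, ZT19.1 in striatum and ZT18.5 in cortex but at ZT13.4 in hypothalamus.

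Cry1 (ENSMUSG00000020038, chromosome 10, 85131700 to 85185064, minus strand) and Cry2 (ENSMUSG00000068742, chromosome 2, 92403646 to 92434043, minus strand; both GRCm38) are protein-coding genes. The 250 bases before the start of each are shown because E-boxes are the elements through which the clock acts on its own repressors. They come from the RefSeq promoter table on GRCm38.p6, read 5′ to 3′ on the minus strand, at chr10:85185055-85185304 for Cry1 and chr2:92434070-92434319 for Cry2. Capitals mark the E-box CACGTG and the E′-box CACGTT, each searched on both strands, so that AACGTG is an E′-box on the other strand. The RefSeq start is not the gene end given above: the Cry1 window reaches into the first bases of the annotated gene, and the Cry2 window begins beyond it.
Cry1: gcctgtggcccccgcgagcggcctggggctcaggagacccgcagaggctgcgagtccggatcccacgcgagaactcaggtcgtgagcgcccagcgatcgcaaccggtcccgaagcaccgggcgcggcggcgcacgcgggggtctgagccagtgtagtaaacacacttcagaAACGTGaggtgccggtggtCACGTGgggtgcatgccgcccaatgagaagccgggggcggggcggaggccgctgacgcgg
Cry2: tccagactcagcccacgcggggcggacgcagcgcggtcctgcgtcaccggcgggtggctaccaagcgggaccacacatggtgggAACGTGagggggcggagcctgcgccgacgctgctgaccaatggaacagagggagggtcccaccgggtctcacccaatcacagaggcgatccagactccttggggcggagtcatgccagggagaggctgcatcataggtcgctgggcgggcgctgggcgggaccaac
In Cry1 an E-box lies at positions -60 to -55 from the RefSeq start and an E′-box at -79 to -74, with no overlap between them. In Cry2 there is an E′-box at -166 to -161 and no E-box. Among 32851 RefSeq promoter windows, searched likewise over the 250 bases before the start, 6.02% hold an E-box and 3.85% an E′-box. The windows of Fbxl21, Csnk1e and Fbxw11 hold none of the motifs searched, which also included the D-box (TTATGTAA, TTACGTAA or TTACATAA), the cAMP response element (TGACGTCA) and the ROR response element. Csnk1d and Btrc are named only. A match is a run of letters and not a measured binding site.

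Cry1 in liver had the largest rhythm of any member. At ZT6 its 12 liver libraries held 3.98, 5.92 and 8.40 CPM (lowest, median and highest, scaled by TMM within the tissue), and at ZT21 its 6 libraries held 46.4, 53.8 and 62.6 CPM. Every ZT21 library was far above every ZT6 library. Between them the level climbed through 4.93 to 10.98 CPM at ZT9, 10.9 to 24.1 at ZT12, 27.2 to 45.3 at ZT15 and 41.1 to 52.4 at ZT18. It came down through 23.3 to 41.5 CPM at ZT0 and 8.60 to 19.2 at ZT3. The fitted log2 ratio was 3.16 ± 0.12 (8.91-fold), with a peak at ZT19.3 ± 0.13 h and an adjusted p of 1.08e-36.

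The same transcript swung less in the brain. In cortex, Cry1 held 12.7, 15.3 and 18.6 CPM at ZT6 (n = 12) and 26.7, 29.6 and 33.3 CPM at ZT15 (n = 6), again without overlap. The cortical log2 ratio was 0.88 ± 0.07 (1.84-fold), with a peak at ZT18.5 ± 0.26 h and an adjusted p of 1.54e-17. Cortical Cry1 also had a called 12 h component beside the 24 h cosine (edgeR adjusted p = 7.15e-05, where 0.332% of genes had one), and no member had one in striatum (0.0277% of genes) or hypothalamus (0.0686%). Its mean was 29.8 ± 2.58 CPM at ZT15 (SD, n = 6), 26.4 ± 2.18 at ZT18 (n = 6), 25.1 ± 3.79 at ZT21 (n = 6) and 27.2 ± 3.06 at ZT0 (n = 12), so that the level was high from ZT15 to ZT0 with its highest mean at ZT15. The highest value at ZT0, 33.8 CPM, belonged to a library without cortical neuron markers.

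Hypothalamic Cry1 had a shallower rhythm, with an earlier peak of the 24 h cosine. Its 12 libraries at ZT3 held 17.6, 20.5 and 21.4 CPM, and the 6 at ZT15 held 23.2, 26.1 and 27.5 CPM. These groups did not overlap. The log2 ratio was 0.28 ± 0.04 (1.21-fold), with the peak at ZT13.4 ± 0.56 h and an adjusted p of 3.58e-08.

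In striatum Cry1 held 13.96, 17.9 and 20.9 CPM at ZT6 (n = 11) and 21.97, 28.1 and 59.5 CPM at ZT21 (n = 6), the highest being the library with cerebellar markers. The 4 libraries at ZT18 held 20.5, 35.97, 19.1 and 37.05 CPM, and the 2 at ZT15 held 24 and 22.9 CPM. The ZT6 and ZT21 groups did not overlap, while the ZT18 libraries fell apart. The striatal log2 ratio was 0.66 ± 0.12 (1.58-fold), with a peak at ZT19.1 ± 0.66 h and an adjusted p of 0.000390. Without the 2 striatal libraries set apart it was 0.52 ± 0.11 (adjusted p = 0.00386), and with the striatal marker sum in the fit 0.68 ± 0.12 (adjusted p = 0.000118). In the first 24 h cycle alone the ratio was 0.63 and the call was lost (adjusted p = 0.112).

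**Figure D2:**
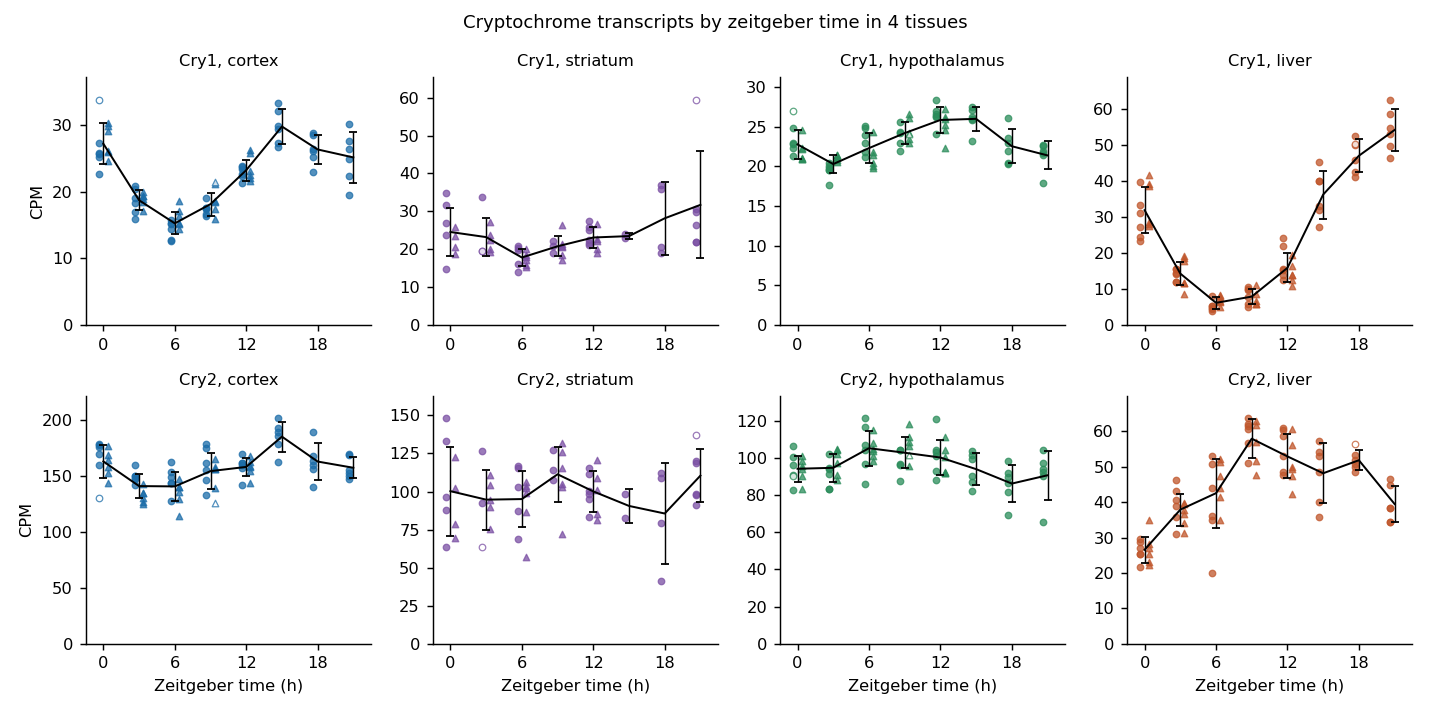
Cry1 and Cry2 in CPM against zeitgeber time (h) in the 4 tissues, with each y axis starting at 0; circles are libraries of the first cycle, triangles of the second, open symbols the libraries set apart, and the black line joins group means ± SD. Liver Cry1 runs from a mean of 6.16 CPM at ZT6 to 54.2 at ZT21, and liver Cry2 from 26.6 at ZT0 to 57.9 at ZT9.

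Cry2 had another timing in each tissue where it was called. In liver its 12 libraries at ZT0 held 21.6, 26.2 and 35.02 CPM, and the 11 at ZT9 held 47.7, 60.6 and 63.6 CPM, with no overlap. The liver log2 ratio was 0.86 ± 0.08 (1.81-fold), with a peak at ZT12 ± 0.41 h and an adjusted p of 4.76e-14. A 12 h component was called for both cryptochromes in liver (edgeR adjusted p = 0.00922 for Cry1 and 0.00585 for Cry2, where 15.4% of genes had one). Liver Cry2 averaged 57.9 ± 5.53 CPM at ZT9 (SD, n = 11), 48.1 ± 8.53 at ZT15 (n = 6), 51.8 ± 2.82 at ZT18 (n = 6) and 39.5 ± 5.13 at ZT21 (n = 6). The level was therefore broad from ZT9 to ZT18 and lower on both sides.

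In cortex Cry2 held 114, 142 and 162 CPM at ZT6 (n = 12) and 163, 188 and 201.5 CPM at ZT15 (n = 6). The highest ZT6 library (162.4 CPM) lay just under the lowest ZT15 library (162.8 CPM). The cortical log2 ratio was 0.28 ± 0.05 (1.22-fold) with a peak at ZT17 ± 0.56 h (edgeR adjusted p = 2.34e-06). In hypothalamus the order turned, with 86.1, 104 and 121 CPM at ZT6 (n = 12) against 68.97, 87.9 and 98.3 CPM at ZT18 (n = 6). These overlapped, although 10 of the 12 ZT6 libraries were above every ZT18 library. The hypothalamic log2 ratio was 0.23 ± 0.05 (1.18-fold) with a peak at ZT7.9 ± 0.71 h (edgeR adjusted p = 0.000276, but 0.106 in the first cycle alone). Striatal Cry2 was not called (log2 ratio 0.04 ± 0.11, adjusted p = 0.994 by edgeR), and its 4 libraries at ZT18 spread from 41.4 to 112 CPM.

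The rhythms of both cryptochromes differed between tissues when the difference itself was tested, as the interaction of tissue with the cosine and sine, with no term for mouse. The size of such a difference is the peak-to-trough log2 range of the fitted difference. For Cry1 it was 0.86 between hypothalamus and cortex (edgeR adjusted p = 3.48e-16, 6.14% of genes called). The hypothalamic peak of the 24 h cosine came 5.0 h before the cortical one. With a 12 h cosine added the cortical peak fell at ZT14.9, and with ZT as 8 groups at ZT15. The highest group mean of Cry1 was at ZT15 in both tissues, so this gap in peak depends on the 24 h cosine. Between hypothalamus and striatum the size for Cry1 was 0.68 (adjusted p = 6.87e-05, 0.292% called), with the hypothalamic peak of the cosine 5.5 h earlier. That call was lost within mice (size 0.61, adjusted p = 0.0949), where no gene was called for this pair. Against liver, Cry1 differed by 2.285 from cortex, 2.49 from striatum and 3.13 from hypothalamus (adjusted p = 7.70e-33, 4.03e-25 and 7.46e-51; 63.6%, 42.0% and 60.8% called). Between striatum and cortex no member was called, and Cry1 had a size of 0.26 (adjusted p = 0.758; 0.501% called).

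For Cry2 the hypothalamic peak came 9.2 h before the cortical one, and the difference had a size of 0.48 (edgeR adjusted p = 2.11e-07), larger than the rhythm in either tissue. Liver Cry2 peaked 5.1 h before cortical and 4.1 h after hypothalamic Cry2, with sizes of 0.82 and 0.77 (adjusted p = 7.89e-13 and 3.89e-11). Against striatum, liver Cry2 differed by 0.81 (adjusted p = 1.84e-06). By the 24 h cosine Cry2 peaked before Cry1 in each tissue where both were called, but the gap varied and the order was not tested. The fitted peaks of Cry2 and Cry1 stood at ZT12 and ZT19.3 in liver, ZT7.9 and ZT13.4 in hypothalamus, and ZT17 and ZT18.5 in cortex. With a 12 h cosine added the cortical peaks stood at ZT14.7 and ZT14.9. With ZT as 8 groups both cortical peaks were at ZT15, so the order in cortex depends on the 24 h cosine.

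The balance of the paralogs was compared per length, in FPKM (fragments per kilobase of gene length, scaled to the library total). In liver the ratio of Cry1 to Cry2 ran from 0.184 to 3.82 over the 77 libraries and was above 1 in 33 of them. It was above 1 in all 12 libraries at ZT0, 2 of 12 at ZT3, none at ZT6 or ZT9, 1 of 12 at ZT12, and all 6 each at ZT15, ZT18 and ZT21. Its median was 0.272 at ZT9 and 2.79 at ZT21. No brain library had more Cry1 than Cry2 per length: the ratio stayed between 0.173 and 0.544 in cortex, 0.349 and 0.969 in striatum, and 0.381 and 0.716 in hypothalamus.

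**Figure D3:**
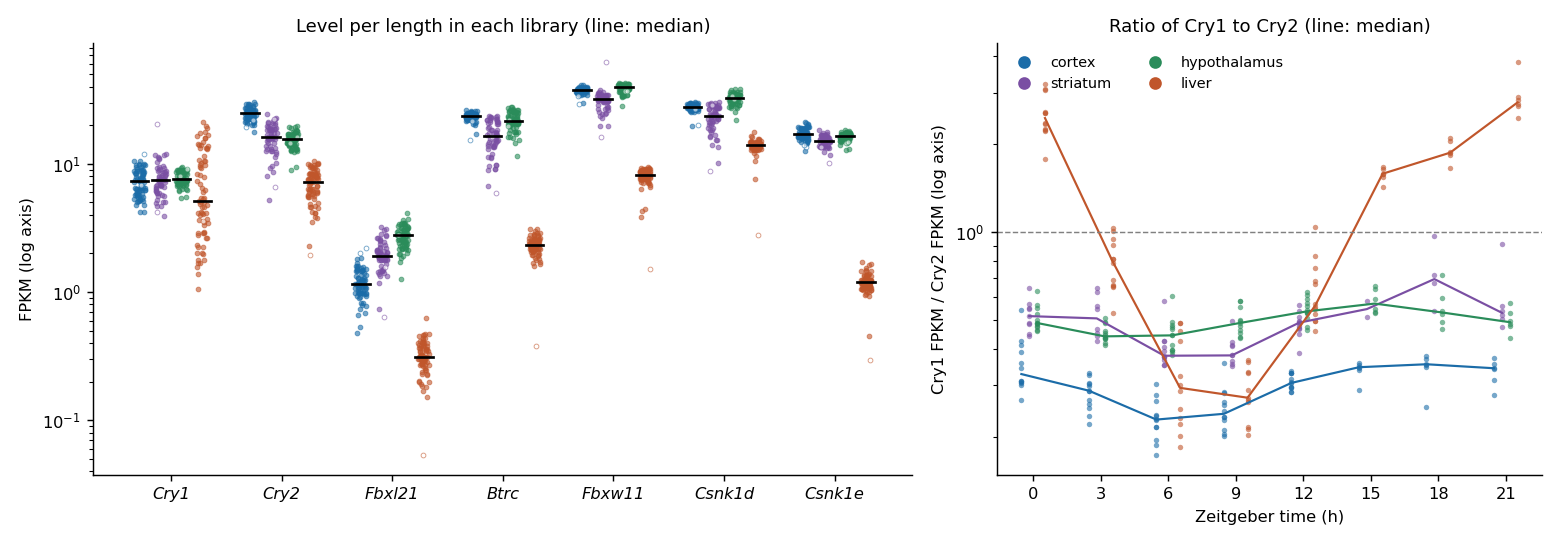
FPKM (log axis) of each member in every library, by tissue, with the median as a line and the libraries set apart as open symbols, and the ratio of Cry1 to Cry2 FPKM (log axis) against zeitgeber time (h), with a dashed line at 1. The liver ratio has a median of 0.272 at ZT9 and 2.79 at ZT21, and every brain library lies below 1.

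Among the F-box genes, Fbxl21 (ENSMUSG00000035509, chromosome 13, 56522472 to 56537898, plus strand) had its lowest group mean at ZT15 in hypothalamus and liver and at ZT18 in striatum, the 3 tissues where it was called. FBXL21 is known to act largely in the cytoplasm. In hypothalamus it held 10.4, 15.02 and 16.98 CPM at ZT6 (n = 12) and 8.80, 10.9 and 12.2 CPM at ZT15 (n = 6). These overlapped by a single library, as 11 of the 12 ZT6 libraries were above every ZT15 library. Its log2 ratio there was 0.39 ± 0.07 (1.31-fold), with a peak at ZT7.2 ± 0.66 h (edgeR adjusted p = 0.000103, but 0.105 in the first cycle alone).

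In striatum Fbxl21 held 8.86, 10.99 and 13.04 CPM at ZT9 (n = 9). At ZT18 its 4 libraries held 8.55, 7.35, 4.46 and 7.61 CPM, all below those of ZT9. The log2 ratio was 0.41 ± 0.11 (1.33-fold) with a peak at ZT7.9 ± 1.0 h (edgeR adjusted p = 0.0265). The call did not hold with the second cycle as a covariate (adjusted p = 0.104), with ZT as 8 groups (0.0912) or in the first cycle alone (0.443).

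Liver had little Fbxl21, with a median of 51 counts per library, so its values there are coarse. At ZT6 the 12 libraries held 1.23, 1.77 and 2.86 CPM, and at ZT15 the 6 held 0.880, 0.966 and 1.40 CPM. These overlapped, with 9 of the 12 ZT6 libraries above every ZT15 library. The log2 ratio was 0.65 ± 0.11 (1.57-fold) with a peak at ZT5.2 ± 0.55 h (edgeR adjusted p = 4.96e-07). In cortex no 24 h rhythm was called (0.25 ± 0.12, adjusted p = 0.175), although the test of 24 h and 12 h cosines together was (adjusted p = 0.0311). The 2 cortex libraries without cortical neuron markers had the most Fbxl21 of all 78, at 9.94 and 10.1 CPM against 2.36 to 8.62 CPM in the others.

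Fbxl21 rhythms differed between liver and each brain tissue, with sizes of 0.57 against cortex, 0.45 against striatum and 0.39 against hypothalamus (edgeR adjusted p = 0.00581, 0.0249 and 0.0130). Within mice the difference from striatum was not called (adjusted p = 0.0692). Among the brain tissues no difference in Fbxl21 rhythm was called, with sizes of 0.18, 0.19 and 0.08 (adjusted p = 0.951, 0.667 and 0.989).

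Btrc (ENSMUSG00000025217, chromosome 19, 45363734 to 45530013, plus strand) and Fbxw11 (ENSMUSG00000020271, chromosome 11, 32642724 to 32746816, plus strand) passed the threshold for a rhythm in liver and in no brain tissue. Liver Btrc held 13.8, 15.9 and 19.2 CPM at ZT3 (n = 12) and 10.3, 11.4 and 13.3 CPM at ZT15 (n = 6). These groups did not overlap, and the log2 ratio was 0.40 ± 0.05 (1.32-fold) with a peak at ZT4.7 ± 0.45 h (edgeR adjusted p = 7.72e-10). In the brain Btrc gave log2 ratios of 0.09 ± 0.03 in cortex, 0.13 ± 0.13 in striatum and 0.09 ± 0.06 in hypothalamus (adjusted p = 0.0586, 0.871 and 0.533). Cortical Btrc was called in 3 of 9 other settings: with the second cycle as a covariate (adjusted p = 0.0420), by DESeq2's likelihood ratio test (0.0468) and without the 2 libraries that lack cortical neuron markers (0.0126), of which 1 held the lowest value in cortex, 99.0 CPM. Striatal Btrc held 98.5, 112 and 136 CPM at ZT21 (n = 6) and 53.3, 90.8 and 95.7 CPM at ZT18 (n = 4), which did not overlap although no rhythm was called.

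Liver Fbxw11 had a smaller log2 ratio than liver Btrc. It held 32.9, 36.8 and 39.2 CPM at ZT3 (n = 12) and 18.8, 32.5 and 36.8 CPM at ZT15 (n = 6), which overlapped. The log2 ratio was 0.18 ± 0.05 (1.14-fold) with a peak at ZT2.4 ± 1.16 h (edgeR adjusted p = 0.00584), but the adjusted p was 0.0736 with ZT as 8 groups and 0.439 in the first cycle alone. Low values at ZT15 and ZT21 came from replicate 3 (18.8 against 30.1 to 36.8 CPM) and replicate 2 (19.1 against 32.8 to 37.5 CPM). The share of these libraries in the call was not tested. In cortex, striatum and hypothalamus the log2 ratios were 0.03 ± 0.03, 0.15 ± 0.07 and 0.04 ± 0.02 (adjusted p = 0.598, 0.349 and 0.433).

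The liver rhythm of Btrc differed from that of cortex by 0.42 and of hypothalamus by 0.36 (edgeR adjusted p = 3.68e-08 and 0.000883), while the difference of 0.34 from striatum was not called (adjusted p = 0.0734). For Fbxw11 the sizes were 0.20, 0.20 and 0.26 against cortex, hypothalamus and striatum (adjusted p = 0.0106, 0.0148 and 0.0433). Against striatum that call was lost within mice (adjusted p = 0.281), with DESeq2 size factors (0.0525) and without the libraries set apart (0.150). The library with cerebellar markers held 258.5 CPM of Fbxw11, against 101.7 to 151.0 CPM in the other striatum libraries.

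**Figure D4:**
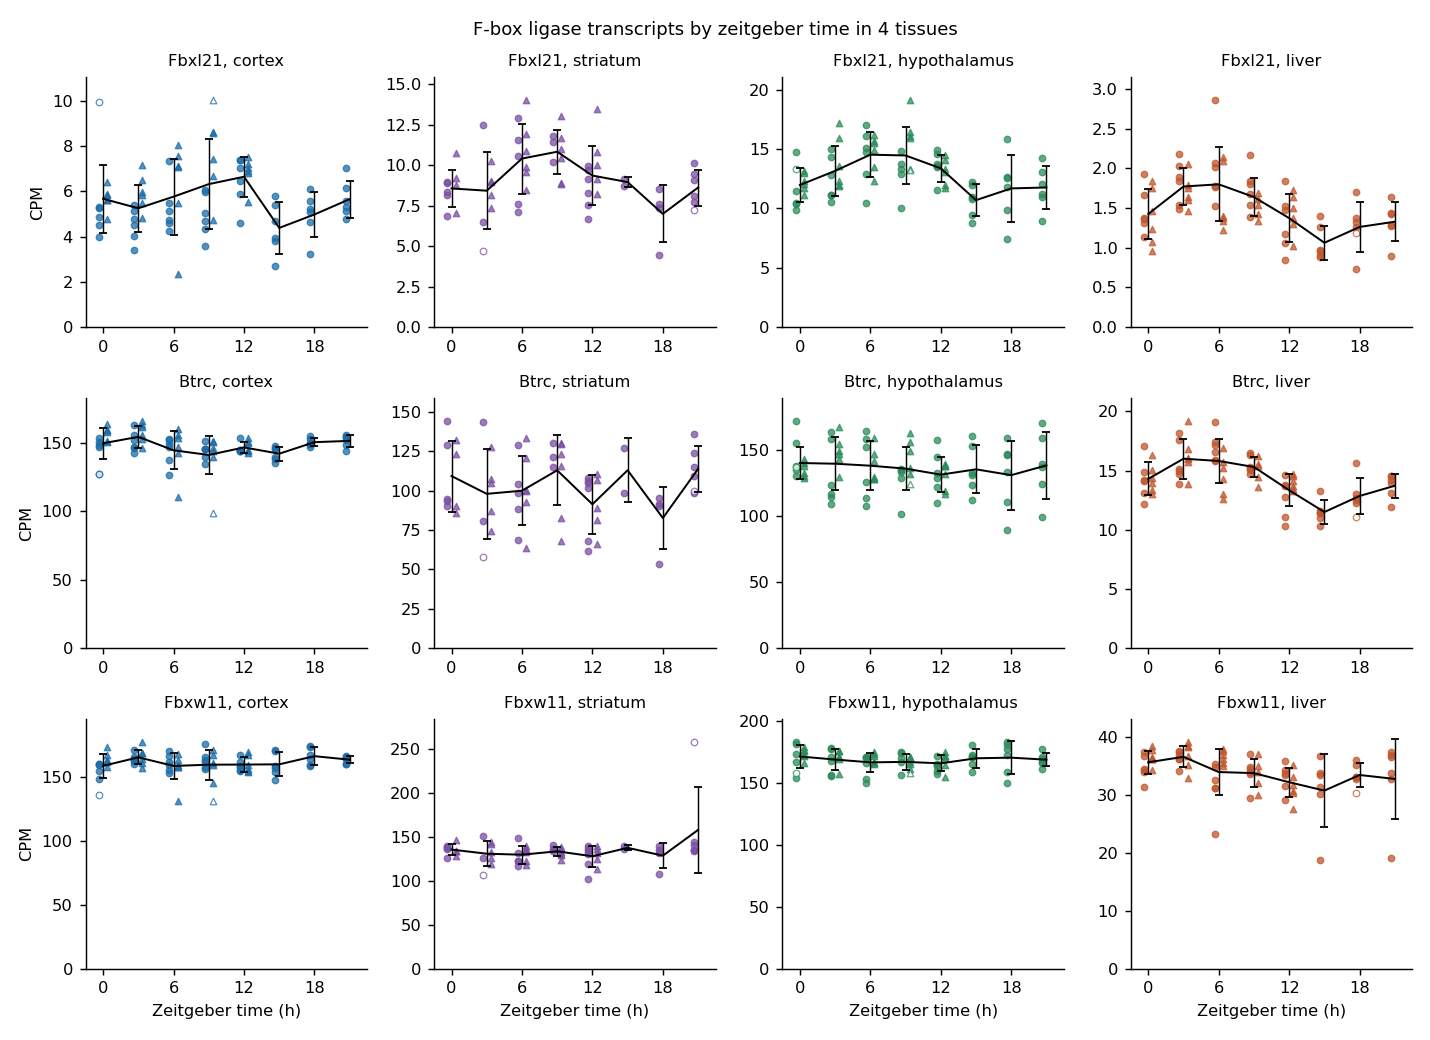
Fbxl21, Btrc and Fbxw11 in CPM against zeitgeber time (h) in the 4 tissues, drawn as for the cryptochromes, with group means ± SD as the black line. Liver Btrc goes from a mean of 16.01 CPM at ZT3 to 11.5 at ZT15, and the open symbol at 258.5 CPM in striatum is the library with cerebellar markers.

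The casein kinases passed the threshold in cortex alone, with small log2 ratios. Csnk1d (ENSMUSG00000025162, chromosome 11, 120961749 to 120991330, minus strand) held 101.5, 136 and 142 CPM in cortex at ZT6 (n = 12) and 146, 149 and 151 CPM at ZT15 (n = 6). The groups did not overlap, and the log2 ratio was 0.14 ± 0.03 (1.101-fold) with a peak at ZT19 ± 0.75 h (edgeR adjusted p = 0.000449), and 0.09 (adjusted p = 0.0401) in the first cycle alone. Csnk1e (ENSMUSG00000022433, chromosome 15, 79417856 to 79455566, minus strand) held 82.8, 102 and 119 CPM at ZT6 and 111, 128 and 139 CPM at ZT15, which overlapped. Its cortical log2 ratio was 0.21 ± 0.05 (1.16-fold) with a peak at ZT19.6 ± 0.80 h (edgeR adjusted p = 0.000774). With the second cycle as a covariate the ratio was 0.16 (adjusted p = 0.0119), and in the first cycle alone 0.10 (adjusted p = 0.348). Between the highest and lowest of 8 fitted ZT groups it was 0.33.

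Elsewhere neither kinase was called by the 24 h cosine. In striatum and hypothalamus Csnk1d gave 0.07 ± 0.09 and 0.02 ± 0.03 (adjusted p = 0.944 and 0.859), and Csnk1e gave 0.07 ± 0.06 and 0.08 ± 0.03 (adjusted p = 0.815 and 0.0972). Striatal Csnk1d held 64.4, 104 and 113 CPM at ZT18 (n = 4), below both ZT15 libraries (134 and 122.5 CPM), again without a call. Liver Csnk1d lay at the threshold: its log2 ratio was 0.10 ± 0.04 (peak ZT17.3 ± 1.32 h, adjusted p = 0.0509), and 4 of 9 other settings called it, among them the fit without the low-depth liver library (adjusted p = 0.0364). Liver Csnk1e gave 0.09 ± 0.07 (adjusted p = 0.526). No difference in kinase rhythm was called between any pair of tissues, with sizes from 0.01 to 0.16, so the kinase rhythms were not shown to differ between cortex and the other tissues.

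**Figure D5:**
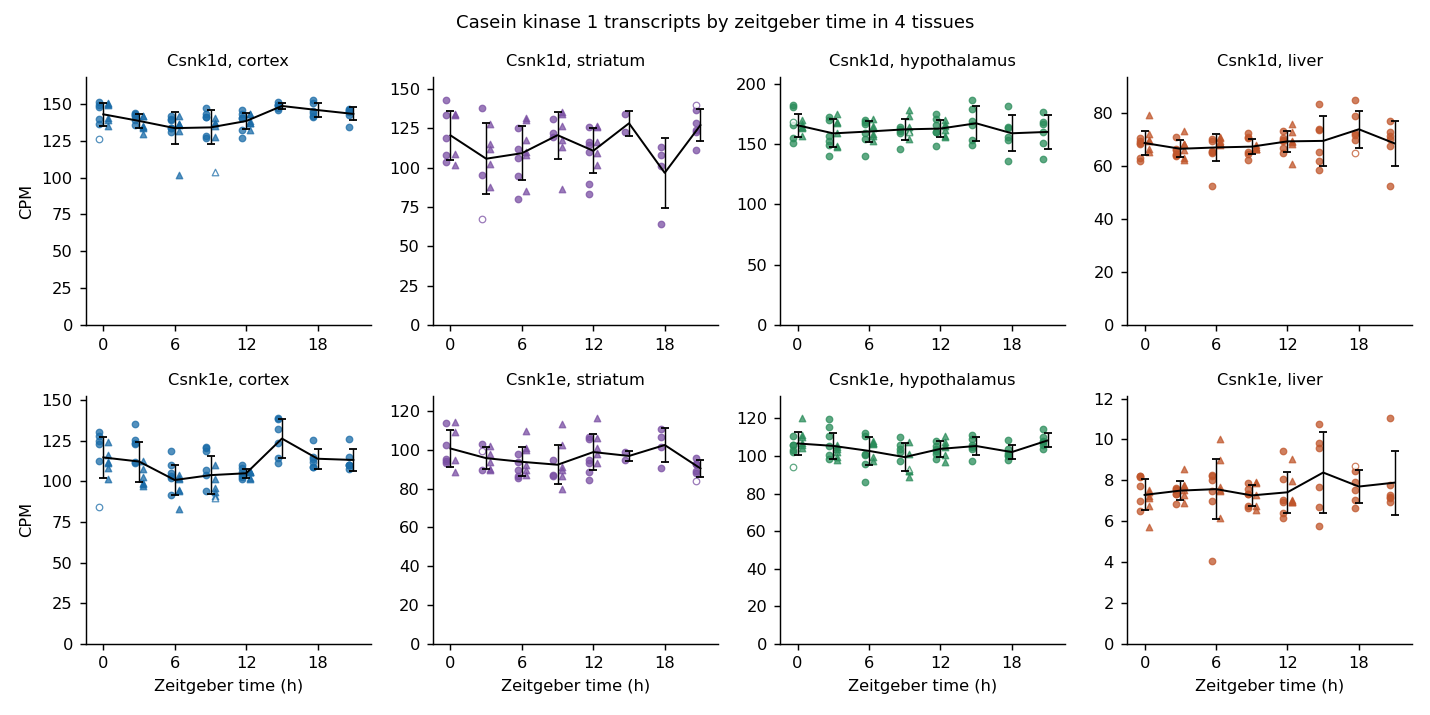
Csnk1d and Csnk1e in CPM against zeitgeber time (h) in the 4 tissues, drawn as for the cryptochromes, with group means ± SD as the black line. Between ZT6 and ZT15 the cortical means run from 133.5 to 148.5 CPM for Csnk1d and from 101 to 126 CPM for Csnk1e.

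The members also differed in level between tissues. In median FPKM their order in cortex was Fbxw11 (37.4), Csnk1d (27.98), Cry2 (24.9), Btrc (23.5), Csnk1e (17), Cry1 (7.35) and Fbxl21 (1.15). In liver it was Csnk1d (14.1), Fbxw11 (8.17), Cry2 (7.22), Cry1 (5.14), Btrc (2.34), Csnk1e (1.19) and Fbxl21 (0.313). In bulk tissue, fewer cells of a type and less RNA per cell cannot be told apart. Levels were tested over all 292 libraries with ZT as a factor and no term for mouse, although 58 of 79 mouse codes cover 4 tissues. Differences are log2 values under TMM scaling, ± SE. Between liver and cortex all 7 members were called, but so were 95.8% of 20598 genes (54.5% lower and 41.4% higher in liver).

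Csnk1e showed the widest gap of the 7 between liver and cortex. Its 77 liver libraries held 0.294 to 1.73 FPKM, all below the lowest brain library, 10.2 FPKM in striatum. The liver minus cortex difference was -2.92 ± 0.02 (edgeR adjusted p = 1.41e-240). Btrc in liver (0.379 to 3.12 FPKM) and Fbxw11 (1.52 to 9.52 FPKM) also lay below every brain library, the lowest of which held 5.96 and 16.2 FPKM. In all 3 genes the lowest liver value was that of the library with the high share of Gm42418. Their differences from cortex were -2.42 ± 0.03 and -1.31 ± 0.02 (adjusted p = 3.40e-174 and 1.52e-157). Csnk1d stayed nearer to its cortical level under TMM, at -0.08 ± 0.02 (adjusted p = 0.000398), but was at -1.01 by library total, the scaling that FPKM also follows. The ratio of Csnk1d to Csnk1e in FPKM accordingly had a median of 11.8 in liver against 1.65 in cortex, 1.57 in striatum and 1.99 in hypothalamus.

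In liver Cry2 and Fbxl21 were lower than in cortex, with differences of -0.90 ± 0.04 and -0.98 ± 0.05 (edgeR adjusted p = 2.69e-59 and 4.45e-54). Cry1 was higher in liver by 0.76 ± 0.08 (adjusted p = 3.99e-20), but the difference was -0.16 (adjusted p = 0.0510) when libraries were scaled by their total alone. This fit gives every tissue the same time course, so for Cry1 its value and SE do not hold for each time of day. Liver libraries held 1.05 to 21.3 FPKM of Cry1, a range that spans the 4.21 to 12.0 FPKM of cortex. The median liver minus cortex difference of all genes was itself -0.35 under TMM, -0.48 with DESeq2 size factors and -1.27 by total, so the direction of a small difference depended on the scaling. In the same way the liver level of Cry1 turned from higher to lower against striatum (0.68 to -0.29) and hypothalamus (0.81 to -0.30), and that of Csnk1d against striatum (0.24 to -0.74). Of all genes, 95.3% were called between liver and striatum (40.3% higher and 55.0% lower in liver) and 95.5% between liver and hypothalamus (42.0% higher and 53.5% lower).

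Within the brain, the level of Fbxl21 was ordered from cortex (1.15 FPKM) through striatum (1.92) to hypothalamus (2.76). Both steps were called, at 0.64 ± 0.05 and 0.35 ± 0.05 (edgeR adjusted p = 2.44e-29 and 5.33e-11; 84.6% and 75.5% of genes called). Cry2 ran the other way, from cortex (24.9 FPKM) through striatum (16.2) to hypothalamus (15.6), with steps of -0.67 ± 0.05 and -0.19 ± 0.05 (adjusted p = 1.91e-35 and 6.27e-05). By library total alone the second of these was -0.05 (adjusted p = 0.367). Cry1 was not called between any brain tissues, at medians of 7.35, 7.47 and 7.58 FPKM and adjusted p of 0.314, 0.528 and 0.115.

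Striatum minus cortex differences were -0.32 ± 0.03 for Csnk1d, -0.22 ± 0.02 for Csnk1e, -0.57 ± 0.04 for Btrc and -0.30 ± 0.02 for Fbxw11, all called by edgeR (46.4% of genes were higher and 38.2% lower in striatum). Hypothalamus minus striatum differences were 0.35 ± 0.03 for Csnk1d, 0.27 ± 0.04 for Btrc and 0.18 ± 0.02 for Fbxw11, while Csnk1e was not called (-0.04 ± 0.02, adjusted p = 0.0954) and was at 0.11 by library total (adjusted p = 0.000671). Between these tissues 34.7% of genes were higher and 40.8% lower in hypothalamus. Hypothalamus was lower than cortex in Csnk1e (-0.26 ± 0.02) and Btrc (-0.30 ± 0.03), where 85.3% of genes were called (43.8% higher and 41.5% lower in hypothalamus). Hypothalamic Fbxw11 was lower than cortical under TMM (-0.12 ± 0.02) and not by library total (0.07, adjusted p = 0.0524). Over the 60 striatum libraries, which were uneven in makeup, Pearson's r of log2 CPM with the striatal marker sum was -0.49 for Csnk1e, 0.34 for Cry2, 0.31 for Cry1, -0.28 for Fbxl21, -0.28 for Fbxw11, 0.14 for Btrc and -0.07 for Csnk1d.

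The 36 h series samples ZT0 to ZT12 in both its first and its second cycle. In cortex, where 6.46% of 19428 genes differed between cycles, 2 of 7 members did. Csnk1e was lower in the second cycle, with a log2 difference of -0.13 ± 0.03 (means of 112 and 103 CPM, n = 30 each, edgeR adjusted p = 0.0130). Fbxl21 was higher by 0.27 ± 0.08 (5.37 and 6.49 CPM, edgeR adjusted p = 0.0411), but not called with no filter on low counts (adjusted p = 0.0628). Without the 2 libraries that lack cortical neuron markers Cry2 was also called, at -0.09 (adjusted p = 0.0138). No member was called in striatum, hypothalamus or liver (2.45%, 0.0% and 0.0% of genes called by edgeR, with 1102 genes in hypothalamus and 1143 in liver at an unadjusted p under 0.05). In striatum no gene was called once ZT3 replicate 5, of 11.7 M, was left out. Cry1 in liver differed by 0.06 ± 0.09 between cycles.

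The peaks of 8 other clock genes place those of the cryptochromes. In liver the fitted peaks ran from Nr1d1 (ZT7.2), Nr1d2 (ZT9.4) and Dbp (ZT9.7) through Per3 (ZT12.2), Per1 (ZT13.2) and Per2 (ZT15.7) to Arntl (ZT22.4), which encodes BMAL1, and Clock (ZT22.6). Cry2 (ZT12) stood beside Per3, and Cry1 (ZT19.3) between Per2 and Arntl. In cortex Per1 (ZT16.4) and Per2 (ZT17.4) peaked close to both cryptochromes. In hypothalamus Per2 (ZT12.5) was nearest to Cry1 (ZT13.4), and Nr1d1 (ZT7.2) to Cry2 (ZT7.9). All 8 were called in cortex and liver, 7 in hypothalamus (not Clock, edgeR adjusted p = 0.609) and 4 in striatum (Per2, Arntl, Nr1d1 and Dbp). Over all genes, the shares called were 43.7% in cortex, 72.8% in liver, 24.3% in hypothalamus and 5.7% in striatum.

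Other genes of the degradation pathway were described as lists. Among 10 other ligase genes, 7 were called in liver, 3 in cortex, 3 in hypothalamus and 0 in striatum, where 72.8%, 43.7%, 24.3% and 5.7% of all genes were. Cul4a, a cullin scaffold, was called in cortex (0.13 ± 0.03), hypothalamus (0.16 ± 0.05) and liver (0.42 ± 0.06). The ubiquitin ligase Siah2 was called in cortex (0.24 ± 0.07) and hypothalamus (0.28 ± 0.07), and the ligase Huwe1 in cortex (0.18 ± 0.06). Dtl, a substrate receptor of cullin 4 ligases, was called in hypothalamus (0.83 ± 0.22) and liver (0.72 ± 0.22), and the ligase Mycbp2 in liver (0.50 ± 0.08).

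Of the 5 core genes of the cullin ligase complex, Cul1, the scaffold that carries the F-box proteins, was called in cortex (0.09 ± 0.02, peak ZT13.2) and liver (0.27 ± 0.04, peak ZT3.2), and the other 4 in no tissue. Of 4 deubiquitinases, Usp2, whose product removes ubiquitin from clock proteins, had the largest log2 ratio: 5.02 ± 0.26 in liver (32.5-fold, peak ZT13.4, edgeR adjusted p = 6.09e-26), 0.63 ± 0.04 in cortex (peak ZT9.9) and 0.54 ± 0.05 in hypothalamus (peak ZT12.3). Striatal Usp2 was not called (0.29 ± 0.17, adjusted p = 0.634). Usp14 was called in cortex (0.12 ± 0.04) and liver (0.09 ± 0.03), and Usp7 in liver (0.14 ± 0.04).

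Among 12 other kinases, 5 were called in cortex, none in striatum or hypothalamus and 11 in liver, beside 43.7% of all genes in cortex, 24.3% in hypothalamus and 72.8% in liver. Csnk1a1, Csnk1g2 and Csnk1g3 encode casein kinase 1 alpha and gamma forms, Gsk3a a glycogen synthase kinase, and Prkaa1 and Prkaa2 the catalytic subunits of AMP-activated kinase. Those with the smallest p were Csnk1a1, Csnk1g2 and Prkaa1 in cortex (0.16 ± 0.03, 0.25 ± 0.07 and 0.16 ± 0.05), and Csnk1g3, Gsk3a and Prkaa2 in liver (0.59 ± 0.05, 0.31 ± 0.03 and 0.59 ± 0.08). Of 6 genes for catalytic phosphatase subunits, 3 were called in liver, Ppp1ca (0.36 ± 0.05), Ppp2cb (0.29 ± 0.04) and Ppp1cc (0.33 ± 0.07), and none in the brain tissues. In the first cycle alone, calls were lost for Huwe1, Usp14 and Prkaa1 in cortex, Siah2 and Cul4a in hypothalamus and Usp14 in liver; with ZT as 8 groups, for Cul1, Huwe1, Usp14 and Csnk1g2 in cortex, Cul4a in hypothalamus, and Usp7 and Usp14 in liver. The median log2 ratio in liver was 0.24 for the other ligases, 0.20 for the deubiquitinases, 0.26 for the other kinases and 0.20 for the phosphatases, beside 0.38 over all genes. As noise alone gives values above 0, these medians are not read as a property of the lists.

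The genes whose log2 CPM ran most like each called member over the libraries of a tissue were found by Pearson's r. For Cry1 they were Ahctf1, Ppp1r3b and Skil in liver (r = 0.91, 0.88 and 0.88 over 77 libraries), Mfap3, Per2 and Rundc1 in cortex (r = 0.85, 0.84 and 0.84 over 78 libraries), Per2, Sfpq and Ctdsp2 in striatum (r = 0.84, 0.84 and 0.82 over 60 libraries) and Rbm3, Fzd4 and Xdh in hypothalamus (r = 0.68, 0.67 and 0.67 over 77 libraries). Per2 was thus among the 3 nearest in cortex and striatum. For Cry2 they were Tef, Foxo3 and Mknk2 in liver (r = 0.86, 0.85 and 0.84 over 77 libraries), Bhlhe40, Chrm1 and Plekhm1 in cortex (r = 0.87, 0.87 and 0.84 over 78 libraries) and Pou6f1, Usp36 and Sorcs2 in hypothalamus (r = 0.90, 0.88 and 0.88 over 77 libraries). For Fbxl21 they were Pcyox1, Syt11 and Rpap3 in striatum (r = 0.84, 0.80 and 0.78 over 60 libraries) and, for hypothalamus, Uvssa and Zkscan2 (r = 0.88 and 0.87 over 77 libraries); liver Fbxl21 lay under the mean log2 CPM of 1 that was required and has none. The libraries share depth and tissue makeup as well as time, so these values describe the libraries.

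Btrc ran most like C1rl, Btc and 4930412C18Rik in liver (r = 0.76, 0.76 and 0.75 over 77 libraries). Fbxw11 ran most like Ctnnb1, Abraxas2 and Glyr1 in liver (r = 0.88, 0.85 and 0.83 over 77 libraries). Ctnnb1 encodes β-catenin, a protein that β-TrCP ligases mark for degradation. Csnk1d ran most like Arhgef11, Gramd1b and Pcdh1 in cortex (r = 0.89, 0.89 and 0.88 over 78 libraries), and Csnk1e like Snph, Atcay and Pde4a in cortex (r = 0.90, 0.90 and 0.88 over 78 libraries).

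Counting may mix some reads between genes. Exons of Cry2 share 4.67% of their bases with D930015M05Rik and those of Csnk1e 4.05% with Gm16059, each on the other strand. The shares were 1.39% for Btrc and 1.25% for Csnk1d, and Cry1, Fbxl21 and Fbxw11 shared none. Whether reads were counted by strand is not given in the sources used here.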

How the data were processed

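RNA-seq libraries of 4 mouse tissues were analysed from the deposited tables of 48795 gene identifiers, of which 48349 matched a symbol. STAR 2.7.3a and HTSeq 0.10.0 on GRCm38 (mm10) are named in the submitters' processing notes; strand setting and annotation release were not given in the sources used here. Raw read counts per gene, as deposited by the authors, entered every test. The FPKM values the authors deposited were proportional to count over library total within 1% for all 19023, 20285, 19880 and 15764 genes checked in cortex, striatum, hypothalamus and liver, and were used to compare levels between genes.

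Counts were filtered with filterByExpr, scaled by TMM and fitted with edgeR 4.0.16 (R 4.3.3; quasi-likelihood test, Benjamini-Hochberg over all genes tested, called under 0.05). Rhythms were a cosine and sine of 24 h per tissue, their differences the interaction with tissue, levels a tissue term beside ZT, and cycles the second against the first 24 h at ZT0 to ZT12. Alternatives used DESeq2 1.42.0, other scalings, filters and time terms, replicate or mouse blocks, and fits without libraries that stood apart, the last chosen after seeing the data. The scripts were tested on simulated data. Tissues are paired by the mouse codes in the labels (79 codes, of which 58 cover 4 tissues and 19 cover 3). The code CR88 occurs for 1 striatum library alone, and CRM88 for cortex, hypothalamus and liver at the same time point. These codes were taken as different mice, so that striatum library is in no within-mice fit of rhythm differences. Values within mice stand beside a result where they change its call.

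The members and lists were chosen with earlier results of these data known. Named beside the members were the 3 called genes with the smallest p of each list in each tissue, the 8 clock genes by peak, and the 3 genes with the highest r to a called member (mean log2 CPM of at least 1, prior count 2). Striatal Usp2 and hypothalamic Clock, which were not called, were added after their values were seen. Some genes that the rule named are not reported here.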

Additional observations from a re-analysis of the deposited data

Results flagged for a closer look

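For each of 7 members in 14 groups of 4 to 10 libraries (98 sets of values), the highest or lowest library was compared with the rest by Dixon's test, which marks about 1 set in 20 by chance, and 12 values in 8 libraries stood out. In the striatum library with cerebellar markers (ZT21 replicate 3), Fbxw11 was at 258.5 CPM against 134 to 144 CPM in the rest of its group, and Cry1 at 59.5 against 21.97 to 30.5 CPM. Striatum ZT9 replicate 9 was low in Cry2 (72.1 against 103 to 132 CPM) and in Csnk1d (86.2 against 113 to 135.5 CPM), and striatum ZT18 replicate 3 in Btrc (53.3 against 90.0 to 95.7 CPM). Hypothalamus ZT21 replicate 4 was low in both cryptochromes, with Cry1 at 17.9 against 21.5 to 22.7 CPM and Cry2 at 65.6 against 90.3 to 104 CPM.

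In cortex, Csnk1d was at 134.5 CPM in ZT21 replicate 4 against 142.7 to 146.7 CPM, and Csnk1e at 125.6 CPM in ZT18 replicate 5 against 108.6 to 114.8 CPM. Liver ZT21 replicate 2 held 11.03 CPM of Csnk1e against 6.94 to 7.75 CPM, and 19.1 CPM of Fbxw11 against 32.8 to 37.5 CPM. Liver ZT15 replicate 3 held 18.8 CPM of Fbxw11 against 30.1 to 36.8 CPM.

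Of 42 differences in rhythm between pairs of tissues, 17 passed the edgeR test of the interaction, 14 of them in the pairs with liver, where 63.6% (cortex), 42.0% (striatum) and 60.8% (hypothalamus) of all genes passed, against 0.292% to 6.14% in the brain pairs. Their sizes, as the log2 range of the fitted difference, were 0.86 for Cry1 and 0.48 for Cry2 between hypothalamus and cortex, and 0.68 for Cry1 between hypothalamus and striatum. Between liver and cortex they were 2.28 for Cry1, 0.82 for Cry2, 0.57 for Fbxl21, 0.42 for Btrc and 0.20 for Fbxw11. Between liver and striatum they were 2.49 for Cry1, 0.81 for Cry2, 0.45 for Fbxl21 and 0.26 for Fbxw11. Between liver and hypothalamus they were 3.13 for Cry1, 0.77 for Cry2, 0.39 for Fbxl21, 0.36 for Btrc and 0.20 for Fbxw11.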

How the results depend on the processing

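Over the alternatives run, the members' rhythm results kept their side of the threshold in 283 cases, became called in 9 and lost their call in 9. Differences in rhythm between tissues kept their side in 163 and lost their call in 5, with their direction not compared. Level differences kept their side and, where called, their direction in 241. They became called in 5, lost their call in 1 and reversed in 5. Cycle differences kept side and, where called, direction in 101, became called in 1 and lost their call in 3. The 5 reversals came with scaling by library total: Cry1 in liver against cortex (-0.16), striatum (-0.29) and hypothalamus (-0.30), Csnk1d in liver against striatum (-0.74), and Fbxw11 in hypothalamus against cortex (0.066). Counts over all genes stayed within 1.5 times in 106 cases and moved in 12. Rhythmic genes in the first cycle alone, which has fewer libraries, numbered 326 in striatum (1233 with both) and 2155 in hypothalamus (4967), and leaving out each library of the thin striatal groups in turn gave 1214 to 1570. Genes with another rhythm in striatum than in cortex numbered 97, and 9 within mice (869 at an unadjusted p under 0.05). In hypothalamus against striatum they numbered 59, and 12 without the libraries set apart and 0 within mice (560 at an unadjusted p under 0.05). Cortical genes that differed between cycles went from 1255 to 3081 without the 2 libraries that lack cortical neuron markers; striatal ones went from 511 to 0 by edgeR without 1 library, ZT3 replicate 5 (4374 at an unadjusted p under 0.05) and to 0 with no filter (5934). The replicate block, with the labels' replicate number as a factor, gave 7138 rhythmic genes in hypothalamus, 37 genes with another rhythm in striatum than in cortex and 3 in hypothalamus than in striatum, and 234 cortical and 0 striatal genes that differed between cycles (3596 striatal genes at an unadjusted p under 0.05). Among members it called a rhythm of hypothalamic Csnk1e (log2 ratio 0.11, adjusted p = 0.00750) and ended the cortical cycle calls of Csnk1e (-0.10, adjusted p = 0.143) and Fbxl21 (0.22, adjusted p = 0.232), and changed no other rhythm call within a tissue. Same-numbered libraries did not deviate together throughout, with a median r of 0.13 in hypothalamus, 0.11 in cortex, 0.06 in striatum and 0.01 in liver and minima from -0.84 to -0.40, so the numbers were not taken as pairs. The causes of these changes were not tested. Within mice, levels were fitted with the dispersion trend of the design without mice, and the liver library set apart, at ZT18, is in no cycle comparison. Low counts limit liver Fbxl21, and 2 libraries at ZT15 limit striatum.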
